A study of Mus musculus with 20 samples.

Results

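The carbonic anhydrases described here are 8 of the 16 mouse genes of this family that have a probe set on the array: Car2, Car3, Car4, Car5b, Car8, Car12, Car13 and Car14. They were selected on their log2 changes in both comparisons below, with earlier results of these arrays known, and each was read from its brightest probe set with a single gene symbol, out of 19938 genes measured that way. The arrays held gastrocnemius, a mixed but mostly fast calf muscle, from adult male C57BL/6 mice. NCoR1-MKO mice lack the nuclear receptor corepressor NCoR1 in muscle and were set against CON mice, which the labels call control without a genotype. PGC-1alpha-mTg mice carry extra PGC-1alpha, a coactivator of transcription, in muscle and were set against WT mice, labelled wild type. Each group had 5 arrays, 20 in all. The Cre line, the transgene promoter and the age in weeks are not given in the sources used here. Because the members were selected on their changes, these are given as a description, without p-values. Where a member is said to be called or to pass a threshold, this records the output of the fit and is not a test of that member. Nothing is read from how many of them passed.

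Carbonic anhydrases are zinc enzymes that interconvert carbon dioxide and water with bicarbonate and a proton. The family is spread over compartments: cytosolic enzymes inside the fibre, membrane enzymes whose active site faces the outside, mitochondrial enzymes, and related proteins that have lost catalytic activity. In muscle they are known for carbon dioxide removal and for buffering protons around lactate transport. The cytosolic enzyme Car3 is among the most abundant proteins of slow fibres in rodents and is also abundant in adipocytes.

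All values are log2 expression values made by RMA, so a difference of 1 is a 2-fold difference. Values in the table ran from 2.66 to 14.47. Array medians were 6.05 to 6.08 in NCoR1-MKO and 6.03 to 6.07 in CON, and 5.87 to 5.91 in PGC-1alpha-mTg and 5.84 to 5.88 in WT. Between any pair of arrays of one cohort the mean gap over quantiles was 0.108 or less, and it was 0.165 to 0.22 across cohorts, so levels are compared only between a model and its own controls. Changes are log2 differences ± SE from 1 limma fit to the 4 groups (n = 5 each). A gene was called at an adjusted p under 0.05 (Benjamini-Hochberg over all 19938 genes). In counts over a list, genes said to have risen or fallen are those called. Whether the 5 arrays of a group stand for 5 mice is not stated, so the p-values reflect the spread among these arrays, and part of that spread may be technical. Muscle identity was clear in all groups: the 5 defining genes Acta1, Ckm, Mb, Tnnt3 and Myh4 averaged at least 13.08 on each array. Ncor1 itself had no probe set of its own here, so the knockout was not checked at its target, whereas Ppargc1a rose by 1.83 ± 0.07 in PGC-1alpha-mTg (limma adjusted p = 9.88e-15), and by 0.41 when the mean of its probe sets was taken.

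The promoters of Car14 and Car4 are shown because both membrane enzymes were higher in PGC-1alpha-mTg muscle, and because RefSeq entries of this table (GRCm38.p6) were at hand for 4 members, Car4, Car5b, Car12 and Car14. Each runs 5′ to 3′ from 250 bases before to 50 after the start annotated for its entry. Car14 is from chr3:95904636-95904935 on the minus strand and Car4 from chr11:84957504-84957803 on the plus strand. The Car14 gene reaches upstream of its window, to 95905117, so the start used is not the outermost of the gene. Capitals mark a CANNTG (E-box) in Car14 and a TATAAA in Car4.
Car14: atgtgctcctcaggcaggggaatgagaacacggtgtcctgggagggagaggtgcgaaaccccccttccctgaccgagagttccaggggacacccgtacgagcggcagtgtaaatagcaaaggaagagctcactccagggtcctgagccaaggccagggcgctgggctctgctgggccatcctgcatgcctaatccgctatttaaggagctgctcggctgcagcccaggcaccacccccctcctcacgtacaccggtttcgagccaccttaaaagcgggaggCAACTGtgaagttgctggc
Car4: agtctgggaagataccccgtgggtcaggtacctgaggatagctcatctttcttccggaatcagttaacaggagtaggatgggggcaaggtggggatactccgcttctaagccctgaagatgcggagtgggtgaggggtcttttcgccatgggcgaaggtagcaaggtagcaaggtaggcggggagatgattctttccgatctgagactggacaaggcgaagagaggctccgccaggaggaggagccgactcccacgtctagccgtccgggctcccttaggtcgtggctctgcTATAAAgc
Both strands were searched for AGGTCA, the half-site of many nuclear receptors. They were also searched for AAGGTCA, the extended form bound by oestrogen-related receptors, every match of which is also a match of the shorter motif. The other motifs were CANNTG, which reads the same on both strands, and TATAAA. Over all 32851 promoter entries of the table, 16.3% held the half-site, 4.72% its extended form, 72.3% the E-box and 13.6% TATAAA. None of the 4 members' windows held the half-site in either form. The Car12 window, like that of Car14, lay inside its gene, which begins at 66712296 while the window begins at 66713436. Sequence around the outer starts of these genes was not searched. The E-box occurred 1 time each in Car14 and Car5b, 31 and 34 bases after the annotated start, and TATAAA 1 time in Car4, 42 bases after the start. These matches describe the letters of the windows only.

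PGC-1alpha-mTg muscle was set against WT to see what extra coactivator does to transcripts. The cytosolic enzymes went apart: Car2 was 3.63-fold higher, while Car3 was 1.76-fold lower. The membrane enzymes Car14 and Car4 were 2.05-fold and 1.53-fold higher, and the dim cytosolic Car13 was 1.19-fold lower. The mitochondrial Car5b, the non-catalytic Car8 and the membrane enzyme Car12 differed by at most 1.11-fold. Among the members, 3 were called higher (Car2, Car4 and Car14) and 2 lower (Car3 and Car13). Of all genes tested, 11.9% were called higher and 16.1% lower, 28.0% together. The median change of the 8 members was 0.14, beside 0.02 over all genes.

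**Figure D1:**
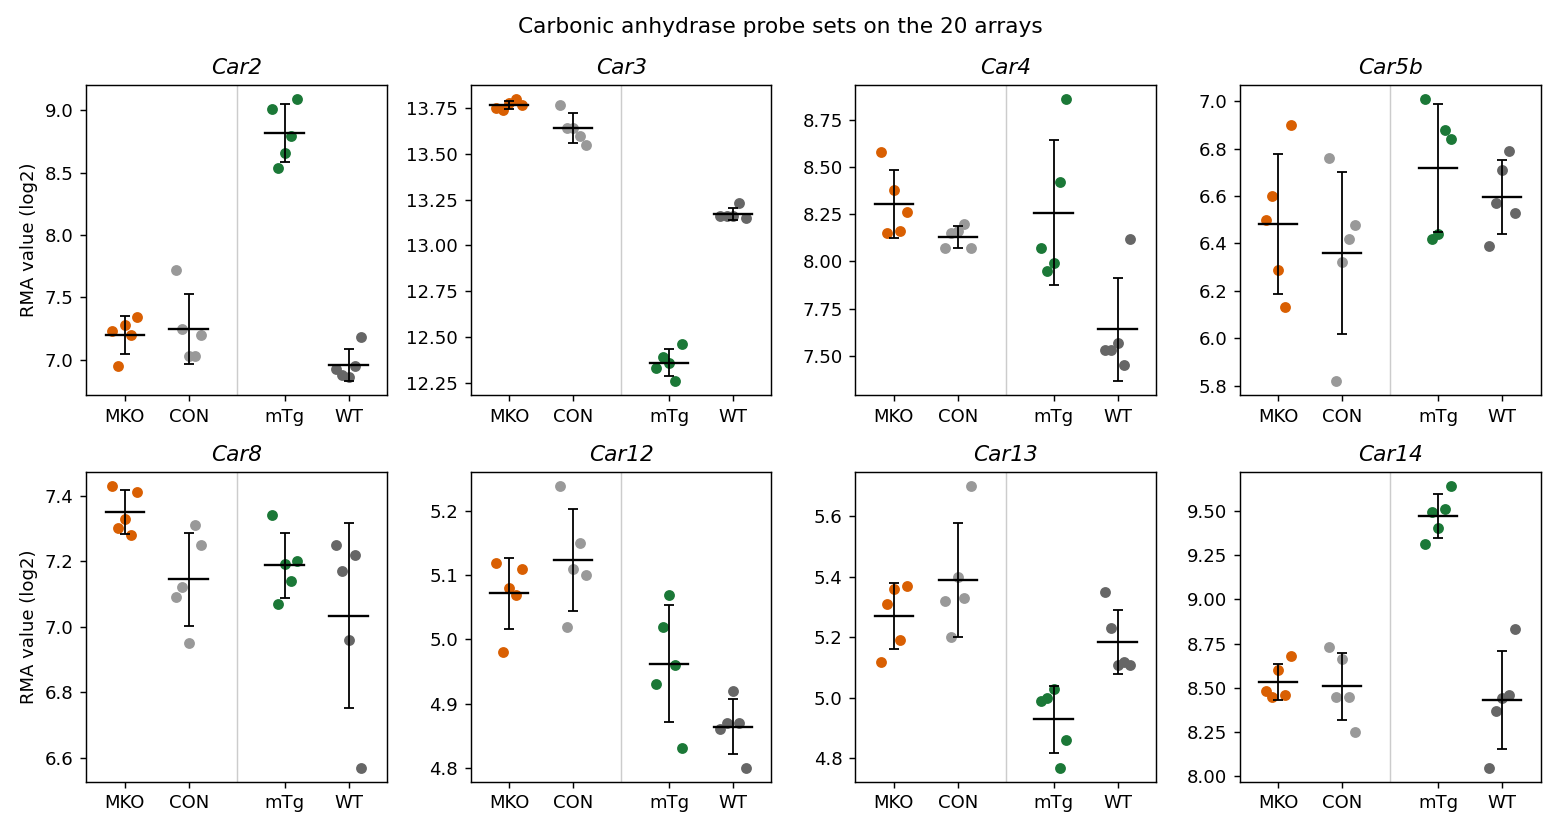
RMA values (log2, y axis, scaled separately for each gene) of the 8 carbonic anhydrase members on every array of NCoR1-MKO (MKO), CON, PGC-1alpha-mTg (mTg) and WT; points are arrays, the wide bar is the group mean and the error bar its SD (n = 5). Car2 and Car14 stand above WT on every mTg array and Car3 and Car13 below it, while the MKO and CON arrays overlap for each gene.

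Car2, the fast cytosolic enzyme of red cells, osteoclasts and many epithelia, read 9.01, 8.54, 8.66, 8.79 and 9.09 in PGC-1alpha-mTg, against 6.93, 6.88, 6.86, 6.95 and 7.18 in WT. Every transgenic array exceeded every WT array, and WT 5 was the highest of the controls. The change was 1.86 ± 0.12. It stayed between 1.79 and 1.93 when each array of the comparison was left out in turn.

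Car3, an enzyme of low carbon dioxide hydration activity, read 12.33, 12.39, 12.36, 12.26 and 12.46 in PGC-1alpha-mTg, against 13.16, 13.16, 13.16, 13.23 and 13.15 in WT. The WT arrays lay close together and above every transgenic array. The change was -0.81 ± 0.04, and -0.94 after quantile normalization across the 20 arrays. Markers of slow fibres moved with it: all 8 were lower in PGC-1alpha-mTg, at a list median of -0.70. Of these, 6 (Myh7, Myl2, Myl3, Tnnt1, Tpm3 and Atp2a2) were called lower, beside 16.1% of all genes. Tnnc1 (-0.77 ± 0.35) and Tnni1 (-0.48 ± 0.27) were not called. The log2 of the summed signal of all 8 slow-fibre markers was 11.90 to 12.72 in PGC-1alpha-mTg and 12.90 to 13.43 in WT. All 8 fast-fibre markers were lower as well, at a median of -0.11, and 5 were called, with Actn3 falling most, by 0.28. Car3 and all 8 fast-fibre markers were among the brightest genes, each with at least 99.3% of genes dimmer. Whether changes are compressed at that signal was not tested, so their sizes are not compared with those of the slow-fibre markers. The part of fibre type in the Car3 difference was not tested, and in whole muscle fewer cells of a type and less RNA per cell cannot be told apart.

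Car14, a transmembrane enzyme of the muscle surface and sarcoplasmic reticulum, read 9.31, 9.49, 9.40, 9.51 and 9.64 in PGC-1alpha-mTg, against 8.05, 8.37, 8.44, 8.46 and 8.83 in WT. The groups did not overlap, although the WT values were more spread out than the transgenic ones. The change was 1.04 ± 0.11. It was 0.94 without WT 1, the lowest control array, and 1.14 without WT 5, the highest.

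Car4, a lipid-anchored enzyme on the outer face of capillary endothelium and muscle fibres, read 8.07, 7.95, 7.99, 8.42 and 8.86 in PGC-1alpha-mTg, against 7.53, 7.53, 7.57, 7.45 and 8.12 in WT. WT 5 lay within the transgenic range, and the other 4 WT arrays lay below it. The change was 0.62 ± 0.14, 0.74 without WT 5 and 0.47 without PGC-1alpha-mTg 5. Of 11 endothelial markers, 10 were higher in PGC-1alpha-mTg, at a list median of 0.39, and 8 were called higher, beside 11.9% of all genes. Among those called were Flt1 (0.47 ± 0.06) and Kdr (0.58 ± 0.15). The log2 of the summed endothelial signal was 12.37 to 12.60 in PGC-1alpha-mTg and 12.01 to 12.20 in WT. WT 5, the control array high in Car4, had the lowest endothelial marker mean of its group, 8.41. The part of vessel cells in the Car4 difference was not tested.

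Car13, a cytosolic enzyme, read 4.99, 5.00, 5.03, 4.77 and 4.86 in PGC-1alpha-mTg, against 5.35, 5.23, 5.11, 5.12 and 5.11 in WT. The groups did not overlap, but their nearest arrays lay close together. The change was -0.25 ± 0.08, and its call was lost without WT 1 or without PGC-1alpha-mTg 4 (-0.21 each). Among the members, 2 had groups that did not overlap and were higher and 2 that were lower. Of all genes, 19.9% had groups that did not overlap, 8.72% higher and 11.2% lower.

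The other 3 members overlapped between the groups. Car5b, which supplies bicarbonate inside mitochondria, read 7.01, 6.42, 6.44, 6.88 and 6.84 in PGC-1alpha-mTg, against 6.39, 6.57, 6.71, 6.79 and 6.53 in WT, a change of 0.12 ± 0.15. With 1 array left out it lay between 0.05, without PGC-1alpha-mTg 1, and 0.19, without PGC-1alpha-mTg 2 or 3. Car8, a relative without catalytic activity that binds an inositol trisphosphate receptor, read 7.34, 7.07, 7.19, 7.14 and 7.20 in PGC-1alpha-mTg, against 7.25, 7.17, 6.96, 7.22 and 6.57 in WT, a change of 0.16 ± 0.10. Its difference was 0.04 without WT 5, which held its lowest value. Car12, a transmembrane enzyme, read 4.93, 5.02, 5.07, 4.96 and 4.83 in PGC-1alpha-mTg, against 4.86, 4.87, 4.92, 4.87 and 4.80 in WT, a change of 0.10 ± 0.05. It was called without PGC-1alpha-mTg 5 (0.13), but its signal was dim, with only 26% of all genes dimmer.

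NCoR1-MKO muscle was set against CON to see what loss of the corepressor does to transcripts. No member was called in limma's test, beside 2.63% of all genes. At an unadjusted p under 0.05, 2 of 8 passed (Car3 and Car8), beside 11.8% of all genes, and limma with a trended, robust variance prior called 1 (Car3). The median change of the members was 0.07, beside 0.00 over all genes, and the groups overlapped for each of the 8, beside 4.17% of all genes whose groups did not (2.21% higher, 1.96% lower).

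Car2 read 7.23, 6.95, 7.28, 7.20 and 7.34 in NCoR1-MKO, against 7.72, 7.25, 7.03, 7.03 and 7.20 in CON. CON 1 was the highest array of both groups. The change was -0.05 ± 0.12, and 0.07 without CON 1. CON 1 was also highest in the means of red-cell and adipocyte markers. Its red-cell mean over 5 genes was 6.63, beside 5.87 to 6.13 on the other CON arrays. Most of that gap lay in Alas2 (9.32, others 7.23 to 8.36) and Slc4a1 (7.56, others 5.84 to 6.27). Epb42 (4.72) and Klf1 (5.50) were only just highest on CON 1, and Ermap (6.06) was not. The adipocyte mean of CON 1 was 8.07, beside 7.05 to 7.35. No haemoglobin gene was among the genes measured singly.

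Car3 read 13.75, 13.74, 13.78, 13.80 and 13.77 in NCoR1-MKO, against 13.77, 13.64, 13.64, 13.60 and 13.55 in CON. All 5 knockout arrays exceeded CON 2 to 5, while CON 1 reached their level. The change was 0.13 ± 0.04, and 0.16 without CON 1, where it was called. All 8 slow-fibre markers were lower in the same muscle, at a list median of -0.79. Of these, 2 were called lower, beside 1.32% of all genes. The 2 called were Myl2 (-0.91 ± 0.18, limma adjusted p = 0.00445) and Myl3 (-0.66 ± 0.16, limma adjusted p = 0.0229). The largest changes, Tnnc1 (-1.09 ± 0.35) and Myh7 (-0.98 ± 0.30), were not called. The log2 of the summed signal of all 8 slow-fibre markers was 12.08 to 13.07 in NCoR1-MKO and 12.71 to 13.67 in CON, so the groups overlapped. Of 8 fast-fibre markers, 1 was called higher (Mylpf, 0.14), beside 1.31% of all genes, and 4 changes were positive and 4 negative. The difference of the Car3 changes, PGC-1alpha-mTg minus NCoR1-MKO, was -0.94 ± 0.06.

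Car8 read 7.43, 7.30, 7.33, 7.28 and 7.41 in NCoR1-MKO, against 7.09, 7.12, 6.95, 7.31 and 7.25 in CON. The knockout arrays were high except that CON 4 exceeded 2 of them. The change was 0.20 ± 0.10. Car4 read 8.58, 8.15, 8.38, 8.16 and 8.26 in NCoR1-MKO, against 8.07, 8.15, 8.16, 8.20 and 8.07 in CON, a change of 0.18 ± 0.14 and of 0.11 without NCoR1-MKO 1. NCoR1-MKO 1 was the highest array for Car4 and also had the highest endothelial marker mean of its group, 9.20. In the knockout 1 of 11 endothelial markers was called higher (Cdh5, 0.28 ± 0.06), beside 1.31% of all genes, and all 11 changes were positive.

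Car5b read 6.50, 6.60, 6.29, 6.13 and 6.90 in NCoR1-MKO, against 6.76, 5.82, 6.32, 6.42 and 6.48 in CON. The groups overlapped widely, at a change of 0.12 ± 0.15 that lay between -0.01, without CON 2, and 0.22, without CON 1. Car14 read 8.48, 8.45, 8.60, 8.46 and 8.68 in NCoR1-MKO, against 8.73, 8.45, 8.66, 8.45 and 8.25 in CON, a change of 0.02 ± 0.11. Car12 lay between 4.98 and 5.12 in NCoR1-MKO and between 5.02 and 5.24 in CON, and Car13 between 5.12 and 5.37 in NCoR1-MKO and between 5.20 and 5.70 in CON. The Car12 change was -0.05 ± 0.05, between -0.08 and -0.02 with 1 array left out, the lower without CON 2 and the other without CON 1. The Car13 change was -0.12 ± 0.08, and -0.04 without CON 5, its highest array.

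The models differed most at Car2, Car14 and Car3. The PGC-1alpha-mTg change minus the NCoR1-MKO change was 1.91 ± 0.17 for Car2 and 1.01 ± 0.15 for Car14. For Car5b and Car8 it was -0.00 ± 0.22 and -0.05 ± 0.14. The comparisons share no arrays, and these differences follow from the changes the members were listed with, so they carry no test.

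**Figure D2:**
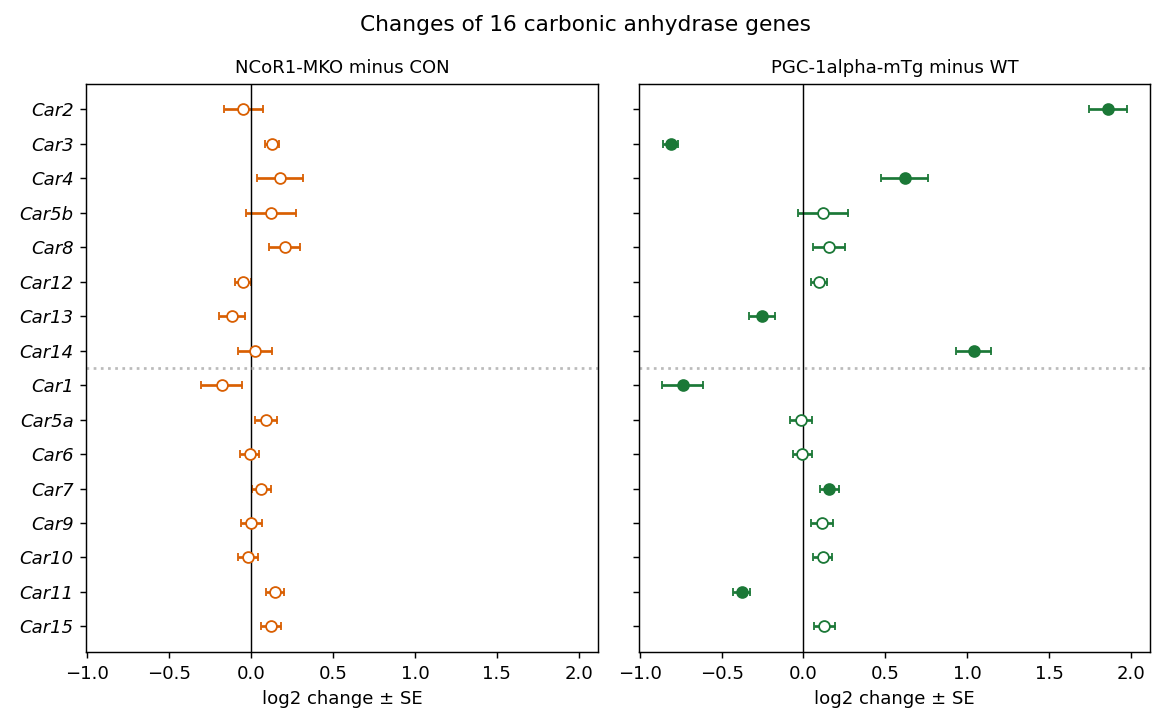
log2 change ± SE (x axis) of 16 carbonic anhydrase genes in NCoR1-MKO against CON (left) and PGC-1alpha-mTg against WT (right), n = 5 per group; the 8 members stand above the dotted line and the 8 other genes of the family below it. Filled points passed limma's adjusted p under 0.05. Car2 reaches 1.86 and Car3 -0.81 on the right, and no point on the left is filled.

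The remaining 8 genes of the family were examined by the same fit. In PGC-1alpha-mTg, Car1, the abundant red-cell enzyme, fell by 0.74 ± 0.12 (limma adjusted p = 7.22e-05). It read 5.45, 5.17, 5.35, 5.01 and 5.02 in PGC-1alpha-mTg, against 5.66, 6.11, 5.93, 5.95 and 6.05 in WT, with no overlap. None of the 5 red-cell markers was called, with Alas2 at 0.20 ± 0.27 and Slc4a1 at 0.08 ± 0.20. Car11, a secreted relative without catalytic activity, fell by 0.38 ± 0.05 (limma adjusted p = 7.27e-06). It read 8.05, 7.84, 7.87, 7.90 and 7.79 in PGC-1alpha-mTg, against 8.38, 8.37, 8.21, 8.13 and 8.24 in WT. Car7, a cytosolic enzyme known from brain and muscle, rose by 0.16 ± 0.06 (limma adjusted p = 0.0487), a call that was lost in 9 of 10 fits without 1 array, where its adjusted p reached 0.163. Car5a, Car6, Car9, Car10 and Car15 were not called, at -0.01, -0.01, 0.11, 0.12 and 0.13, and Car10 passed without WT 2. In NCoR1-MKO none of the 8 was called, and Car11 alone passed at an unadjusted p under 0.05, at 0.15 ± 0.05. Its groups did not overlap, with 8.91 to 9.04 in NCoR1-MKO and 8.75 to 8.89 in CON.

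Car13, Car1, Car3 and Car2 follow one another on chromosome 3 in the RefSeq assembly GRCm38.p6, with no other protein-coding gene between them. In PGC-1alpha-mTg the 3 neighbours Car13, Car1 and Car3 were lower, by 0.25, 0.74 and 0.81, and Car2 at the end of the row was higher by 1.86. In NCoR1-MKO the same 4 stood at -0.12, -0.18, 0.13 and -0.05.

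Genes that move, make or use bicarbonate, protons, lactate and water were taken from 5 lists, of which the remaining carbonic anhydrases are the first. Of 47 measured, 9 rose and 6 fell in PGC-1alpha-mTg, with a median change of 0.08. In NCoR1-MKO none rose and 3 fell, with a median of 0.00. These counts stand beside 11.9% higher and 16.1% lower of all genes in PGC-1alpha-mTg, and 1.31% higher and 1.32% lower in NCoR1-MKO.

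The list of bicarbonate transporters held 15 genes of the Slc4 and Slc26 families, and transport of bicarbonate by each was not checked. Of these, 1 rose and 2 fell in PGC-1alpha-mTg. The sodium bicarbonate cotransporter gene Slc4a4 fell by 0.37 ± 0.06 (limma adjusted p = 7.86e-05), the anion exchanger gene Slc26a6 fell by 0.41 ± 0.08 and Slc4a11 rose by 0.28 ± 0.08. The Slc4a11 call was lost without PGC-1alpha-mTg 4, and its signal was dim, with only 32.3% of all genes dimmer. In NCoR1-MKO the only call of this list was Slc4a10, a sodium-driven bicarbonate transporter known from neurons. Its signal was dim, with only 31.1% of all genes dimmer. It read 4.69, 4.68, 4.58, 4.75 and 4.58 in NCoR1-MKO, against 5.19, 5.26, 5.50, 5.15 and 5.73 in CON. The groups did not overlap, and the fall was -0.71 ± 0.09 (limma adjusted p = 3.4e-05).

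Lactate and proton transport showed 1 rise and 1 fall among 9 genes in PGC-1alpha-mTg and no call in NCoR1-MKO. Slc16a1, the lactate transporter of oxidative cells, read 9.98, 10.07, 10.15, 10.12 and 9.98 in PGC-1alpha-mTg, against 8.86 to 9.22 in WT, and rose by 1.05 ± 0.10 (limma adjusted p = 1.29e-08). Slc16a3, the lactate exporter of glycolytic fibres, fell by 0.47 ± 0.06 (limma adjusted p = 1.21e-06). Their shared chaperone Bsg stood at 0.06 ± 0.04. In NCoR1-MKO the smallest p of this list was that of Slc16a7, at -0.24 ± 0.08 (limma adjusted p = 0.124).

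Of 7 water and gas channel genes, 2 rose in PGC-1alpha-mTg. Aqp1, a water channel of capillaries and red cells, read 11.13 to 11.52 in PGC-1alpha-mTg and 10.55 to 10.75 in WT, and rose by 0.60 ± 0.07 (limma adjusted p = 3.61e-07). Aqp4, the water channel of the fast-fibre surface, rose by 0.32 ± 0.08. Aqp7, a glycerol channel of adipocytes and vessels, stood at 0.34 ± 0.14 (limma adjusted p = 0.0684). None was called in NCoR1-MKO, where Aqp7 stood at 0.29 ± 0.14.

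Of 8 genes for enzymes that fix bicarbonate onto a substrate, or for subunits of such enzymes, 4 rose and 1 fell in PGC-1alpha-mTg, and 2 fell in NCoR1-MKO. Pcx, the pyruvate carboxylase of mitochondria, fell in both: by 0.59 ± 0.08 in PGC-1alpha-mTg (limma adjusted p = 5.17e-06) and by 0.47 ± 0.08 in NCoR1-MKO (limma adjusted p = 0.00121). It read 8.36, 8.53, 8.48, 8.85 and 8.52 in PGC-1alpha-mTg, against 9.24, 9.33, 9.10, 9.01 and 9.03 in WT. In the knockout it read 9.17, 9.20, 9.15, 9.29 and 9.36, against 9.65, 9.54, 9.90, 9.67 and 9.77 in CON, so neither pair of groups overlapped. Some subunit genes of the carboxylases of branched-chain amino acid breakdown rose in PGC-1alpha-mTg. These were Mccc1 (0.37 ± 0.06), Mccc2 (0.39 ± 0.05) and Pccb (0.21 ± 0.04), a subunit of propionyl-CoA carboxylase. Acacb, which makes malonyl-CoA at the mitochondrial surface, rose by 0.16 ± 0.05, a call lost without WT 4 or PGC-1alpha-mTg 5. The other propionyl-CoA carboxylase subunit, Pcca, fell by 0.15 ± 0.04 in NCoR1-MKO, a call kept in only 2 of 10 fits without 1 array, and stood at 0.08 ± 0.04 in PGC-1alpha-mTg.

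**Figure D3:**
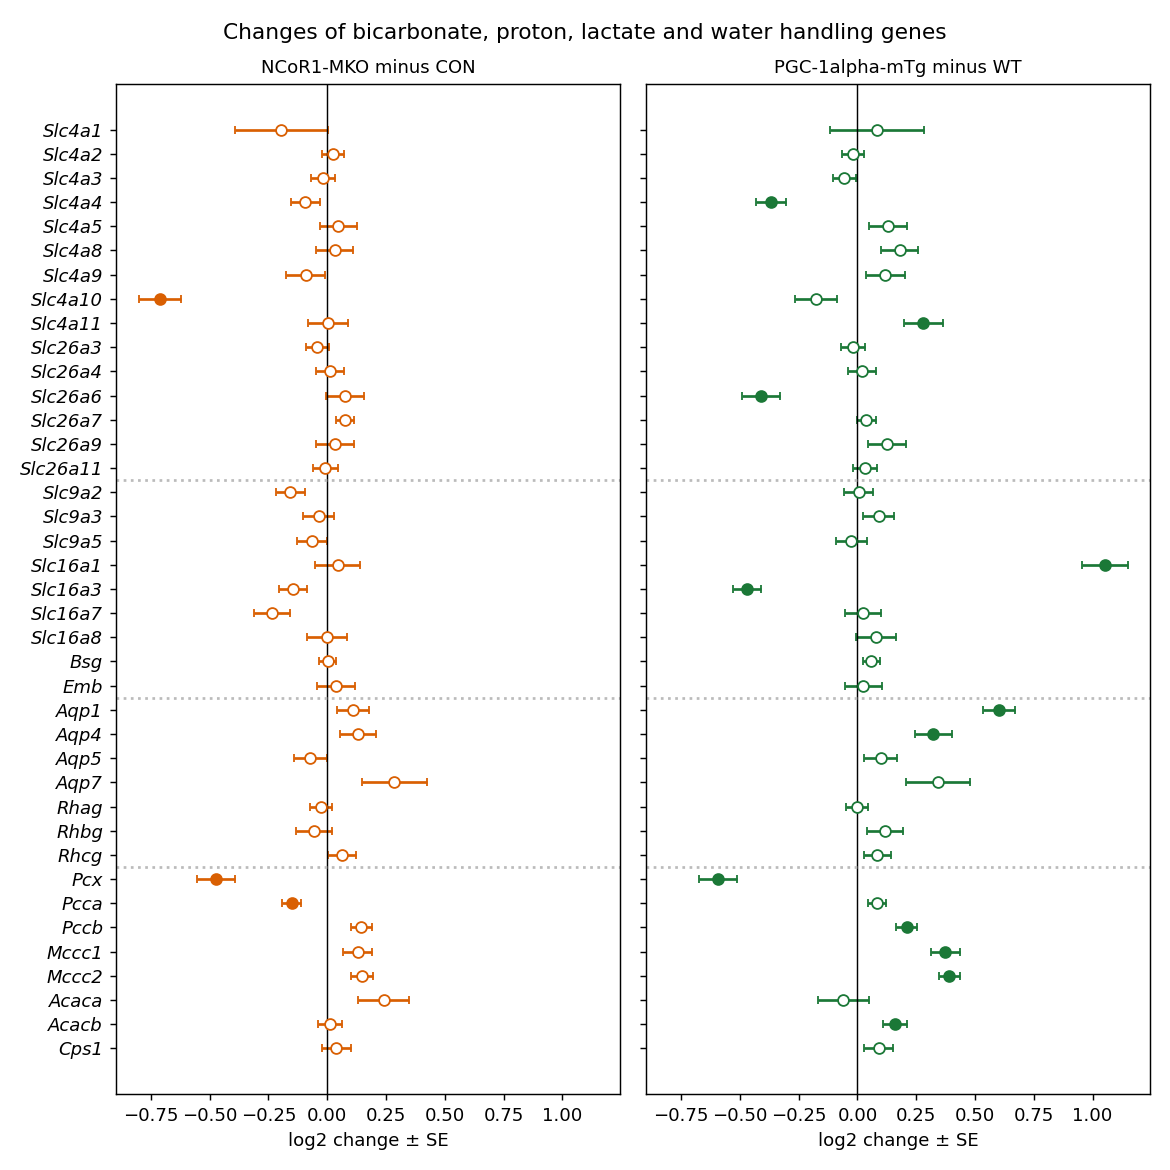
log2 change ± SE (x axis) of 39 genes in NCoR1-MKO against CON (left) and PGC-1alpha-mTg against WT (right), n = 5 per group. Dotted lines part, from the top, the Slc4 and Slc26 families, proton and lactate transport, water and gas channels, and genes of carboxylases that use bicarbonate. Filled points passed limma's adjusted p under 0.05. Slc16a1 at 1.05 is the highest point on the right, and Slc4a10 at -0.71 the lowest on the left.

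How members varied among arrays of the same group does not enter the changes they were listed with. Deviations from the group mean over the 20 arrays were set against the mean of 5 marker lists (slow fibre, fast fibre, adipocyte, red cell, endothelium), 40 relations in all, with permutation within groups (two-sided, 100000 draws). Only Car5b with the adipocyte markers passed after adjustment over the 40. Pearson's r was 0.78 (permutation p = 0.00045, adjusted p = 0.018) and Spearman's rho was 0.77 (permutation p = 0.0003, adjusted p = 0.012). Without the 2 arrays farthest from the median of the adipocyte mean, CON 1 and NCoR1-MKO 5, r was 0.66. Within the 10 arrays of NCoR1-MKO and CON r was 0.87, and within the 10 arrays of PGC-1alpha-mTg and WT it was 0.58. CON 1 and NCoR1-MKO 5, at 8.07 and 7.91 in adipocyte mean, held the highest Car5b of their groups, 6.76 and 6.90. No adipocyte marker was called in either model (0 of 5 in each), and all 10 of these limma adjusted p-values were at least 0.355.

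Car3 deviated with the slow-fibre markers at r = 0.46 (permutation p = 0.0569, adjusted p = 0.412), a relation that did not pass. Its r with the red-cell markers was 0.55 (permutation p = 0.121, adjusted p = 0.447) and 0.21 without CON 1 and CON 2. Car8 followed the endothelial markers at r = 0.51 (permutation p = 0.00743, adjusted p = 0.149), with 0.57 in the NCoR1-MKO and CON arrays and 0.60 in the PGC-1alpha-mTg and WT arrays, and did not pass after adjustment. For Car4 the endothelial r was 0.25 (permutation p = 0.264, adjusted p = 0.567).

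**Figure D4:**
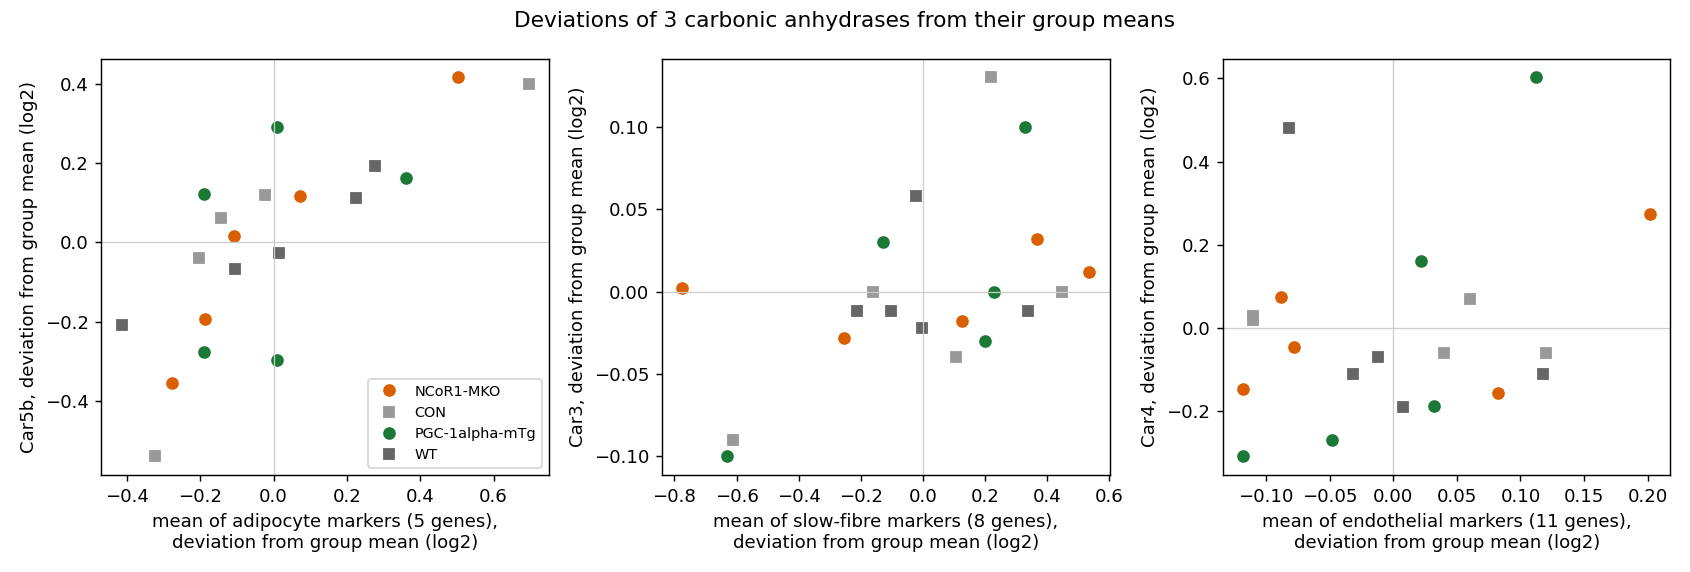
Deviation of Car5b, Car3 and Car4 from their group means (y axes, log2) against that of the mean of adipocyte, slow-fibre and endothelial markers (x axes, log2); each point is 1 of 20 arrays, circles are NCoR1-MKO and PGC-1alpha-mTg, squares CON and WT. Car5b deviates with the adipocyte mean (r = 0.78), whereas r is 0.46 for Car3 and 0.25 for Car4.

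The genes most like each member in these deviations were found by Pearson's r over the same 20 arrays, as a description without p, since they are the top of 19938. For Car4 the nearest was Pkp4, a plakophilin of cell junctions, at r = 0.95 and rho = 0.90, and still 0.88 without WT 5 and PGC-1alpha-mTg 5, where Car4 deviated most. Stmn2 and Rapgef2 followed at 0.85 each, and at 0.64 and 0.60 without those arrays. For Car5b they were Acaca, the lipogenic acetyl-CoA carboxylase, at 0.84, the asparagine synthetase gene Asns at 0.82 and the adiponectin gene Adipoq at 0.81. These stayed at 0.83, 0.74 and 0.80 without CON 2 and NCoR1-MKO 4. For Car2 they were Ak4, a mitochondrial adenylate kinase, at 0.85, the complex I gene Ndufa6 at 0.83 and the transporter gene Abca6 at 0.82, and at 0.71, 0.65 and 0.71 without CON 1 and PGC-1alpha-mTg 5. For Car3 the nearest was Dnajb1, a heat shock cochaperone, at 0.80, and at 0.74 without the same arrays. The nearest to Car14 was Sox5, at 0.81, to Car8 Casp8, at 0.85, to Car12 Mob3b, at 0.82, and to Car13 Olfr1459, at 0.78. Without the 2 arrays where each deviated most these became 0.63 for Sox5, 0.71 for Casp8, 0.76 for Mob3b and 0.56 for Olfr1459.

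Among members themselves, the deviations of Car8 and Car14 went in opposite directions, at r = -0.73 and rho = -0.51. WT 5 was the lowest array of its group for Car8 (6.57) and the highest for Car14 (8.83), Car4 (8.12) and Car2 (7.18). Car4 and Car14 deviated together at r = 0.52, and Car2 with Car3 at r = 0.48. These values carry no p. None was computed without the arrays that deviated most, such as WT 5, so how far they rest on such arrays is not known.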

How the data were processed

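The authors deposited 1 log2 value per probe set and array. RMA and Partek are named, without versions, in the submitters' processing notes. Genome build and annotation are not given in the sources used here. Labels gave 5 arrays per group. Of 35556 probe sets, 21789 had 1 gene symbol in the platform table, 1621 several and 12146 none. Symbols were checked against RefSeq (GRCm38.p6) by Entrez number (21698 matched, 0 changed). The brightest single-symbol probe set stood for each of 19938 genes. No array duplicated another. The number of arrays limits the precision, since an array has no sequencing depth.

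In R 4.3.3, limma 3.58.1 fitted the 4 group means (lmFit), and both contrasts were tested by eBayes, two-sided, Benjamini-Hochberg over all genes. The fit was tested on simulated data. Members and gene lists were chosen with earlier results of these data known, and the relations with marker lists were added after values were seen. Named were all members, Ppargc1a, up to 3 called genes per direction and list (otherwise the smallest p), all other family genes, the 3 most alike genes, and defining markers. Acacb, Bsg and the PGC-1alpha-mTg values of Aqp7 and Pcca fall outside this rule and were chosen after their values were seen. Marker lists for macrophages, fibroblasts, Schwann, smooth muscle and satellite cells were also read: in PGC-1alpha-mTg, C1qa rose, Pdgfra, Dcn, Myf5 and Calcr fell and no other gene of them was called, and in NCoR1-MKO none was. Permutation used scipy 1.17.1. Alternatives were quantile normalization, median centring, leaving out dim genes, averaging probe sets per gene, fitting each comparison's 10 arrays alone, another prior, a replicate block, and each array left out in turn.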

Additional observations from a re-analysis of the deposited data

Results flagged for a closer look

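Among 64 sets of 5 arrays (16 carbonic anhydrase genes in 4 groups), 4 held an array set apart from the others by more than 0.71 of the group's range, a gap that chance gives in about 1 in 20 sets. All 4 were WT arrays. Car2 read 7.18 on WT 5, with the other WT arrays at 6.86 to 6.95. Car4 read 8.12 on WT 5, with the others at 7.45 to 7.57. Car3 read 13.23 on WT 4, with the others at 13.15 to 13.16, and Car9 read 5.13 on WT 2, with the others at 5.02 to 5.05. Without WT 5 the PGC-1alpha-mTg change was 1.91 for Car2 and 0.74 for Car4, and without WT 4 it was -0.80 for Car3.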

How the results depend on the processing

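Over 7 other settings and the 10 fits that each left out 1 array of a comparison, 99 of 102 counts of calls stayed within 1.5 times the reported count. The members called in NCoR1-MKO were 1 with a trended, robust prior, and 0 to 1 with 1 array left out. There, acid-base genes called numbered 2 to 5, 5 of them without NCoR1-MKO 5 and 3 in the reported fit. In PGC-1alpha-mTg, 4 to 6 members were called with 1 array left out, and 13 to 15 acid-base genes. Same-numbered arrays of NCoR1-MKO and CON correlated at -0.13 to 0.04 in their deviations from the group means, and those of PGC-1alpha-mTg and WT at -0.23 to 0.20, so numbers were not taken as pairs. With the replicate number as a block (replicate block), 0 members were called in NCoR1-MKO and 5 in PGC-1alpha-mTg, with 370 and 5318 genes in all, against 525 and 5575. Of 1036 changes of named genes, 30 lost and 8 gained a call. A sign turned in 30, each near 0 and called in no fit: with each array centred on its median, Car9 and Slc4a11 stood at -0.01 in NCoR1-MKO. With 1 array left out in NCoR1-MKO, the changes ranged from -0.10 to 0.07 for Car2, -0.01 to 0.22 for Car5b, -0.04 to 0.08 for Car14, -0.03 to 0.02 for Car6, -0.04 to 0.07 for Car9, -0.04 to 0.01 for Car10, -0.03 to 0.07 for Slc4a11 and -0.05 to 0.11 for Slc16a1. In PGC-1alpha-mTg they ranged from -0.05 to 0.05 for Car5a and -0.05 to 0.03 for Car6. Without the dimmest 40 percent of genes, Car5a, Car6, Car9, Car10, Car12, Car13, Car15, Slc4a10 and Slc4a11 were not tested. The cause of these changes was not tested.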
